A study of Mus musculus with 24 samples.

Results

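The mitochondrially encoded genes are the 37 rows of the count table that lie on the mitochondrial chromosome (MT), out of 33272 genes in all. The choice used the chromosome alone and no measured value. They comprise 13 protein genes, 2 ribosomal RNA (rRNA) genes and 22 transfer RNA (tRNA) genes, and the table holds each of them with at least 22 of the 24 libraries above 0. Of the 37, 9 lie on the minus strand of the reference sequence.

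RNA was measured in liver and kidney of C57BL/6 mice, an inbred strain, with 3 libraries in each of 4 arms per tissue. The combination arm received the flagellin-derived TLR5 agonist CBLB502 at 0.2 mg/kg, and 30 min later the platinum drug cisplatin at 20 mg/kg into the peritoneum. The cisplatin arm and the CBLB502 arm received 1 of those agents, and the control arm is labelled as untreated. The treated tissues were taken at 72 h, and no collection time is given for the controls. Nothing in the labels ties the libraries of a group to separate animals, so every p-value here measures the spread between libraries, which may be technical. Total counts ran from 40578350 to 77535597 per library.

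Mammalian mitochondrial DNA is a small circle that is copied into long polycistronic transcripts from both strands. In most of the genome tRNAs sit between the other genes, and their excision releases the mRNAs and rRNAs. The protein genes encode core subunits of complexes I, III, IV and V of oxidative phosphorylation, and every other subunit comes from nuclear genes. Liver and kidney tubules are rich in mitochondria, and the proximal tubule, which relies on oxidative metabolism, is the main site of kidney injury by cisplatin.

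The results below turn on a block of 4 adjacent tRNA genes on the minus strand, mt-Ta, mt-Tn, mt-Tc and mt-Ty, next to the light-strand origin of replication, which lies between mt-Tn and mt-Tc. They decode alanine, asparagine, cysteine and tyrosine. Also shown are mt-Tp, the proline tRNA beside the control region, and the plus-strand tRNAs for glycine, mt-Tg, and aspartate, mt-Td, which were lower in some arms. Sequences are the gene strand as DNA from the GENCODE vM21 transcripts of build GRCm38, and capitals mark the anticodon, found by its position in a 5-pair stem.
mt-Ta (chrMT:5018-5086, minus strand): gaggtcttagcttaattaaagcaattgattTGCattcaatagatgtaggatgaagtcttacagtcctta
mt-Tn (chrMT:5089-5159, minus strand): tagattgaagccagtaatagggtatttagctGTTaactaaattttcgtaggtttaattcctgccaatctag
mt-Tc (chrMT:5192-5257, minus strand): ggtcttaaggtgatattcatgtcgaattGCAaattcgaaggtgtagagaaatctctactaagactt
mt-Ty (chrMT:5260-5326, minus strand): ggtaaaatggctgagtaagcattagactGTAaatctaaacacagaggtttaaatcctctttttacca
mt-Tp (chrMT:15356-15422, minus strand): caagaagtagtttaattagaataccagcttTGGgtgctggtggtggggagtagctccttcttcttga
mt-Tg (chrMT:9391-9458, plus strand): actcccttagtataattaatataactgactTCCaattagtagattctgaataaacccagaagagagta
mt-Td (chrMT:6942-7011, plus strand): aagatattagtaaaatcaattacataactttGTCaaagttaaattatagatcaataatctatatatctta

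A cluster of 7 annotated pseudogenes on chromosome 1 repeats a stretch of the mitochondrial genome, and its counts cannot be told apart from those of the genes it copies. Over the annotated copy, Gm10222 and mt-Nd4l matched at 100% of 294 bases, Gm28437 and mt-Co3 at 100% of 783 bases, and Gm28439 and the matching part of mt-Nd4 at 100% of 876 bases. The copy of mt-Nd3, Gm28438, matched at 99.71% of 345 bases and differed by the substitution T3C, with position 3 counted from the first base of mt-Nd3. That base is the capital in the next 2 windows.
mt-Nd3: atTaacctgtacactgt
Gm28438: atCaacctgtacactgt
In treated libraries the 5 nearly full-length copies had 0.926 to 1.09 times the count of their gene, and in controls 0.796 to 1.03 times. Gm28439 and Gm29216, which match only part of mt-Nd4 and mt-Co1, had 0.145 to 0.375 times. How reads that match several places were counted is not given in the sources used here, so the values of mt-Nd3, mt-Nd4l, mt-Nd4, mt-Co1, mt-Co2, mt-Co3 and mt-Atp6 are uncertain to that extent.

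**Figure D1:**
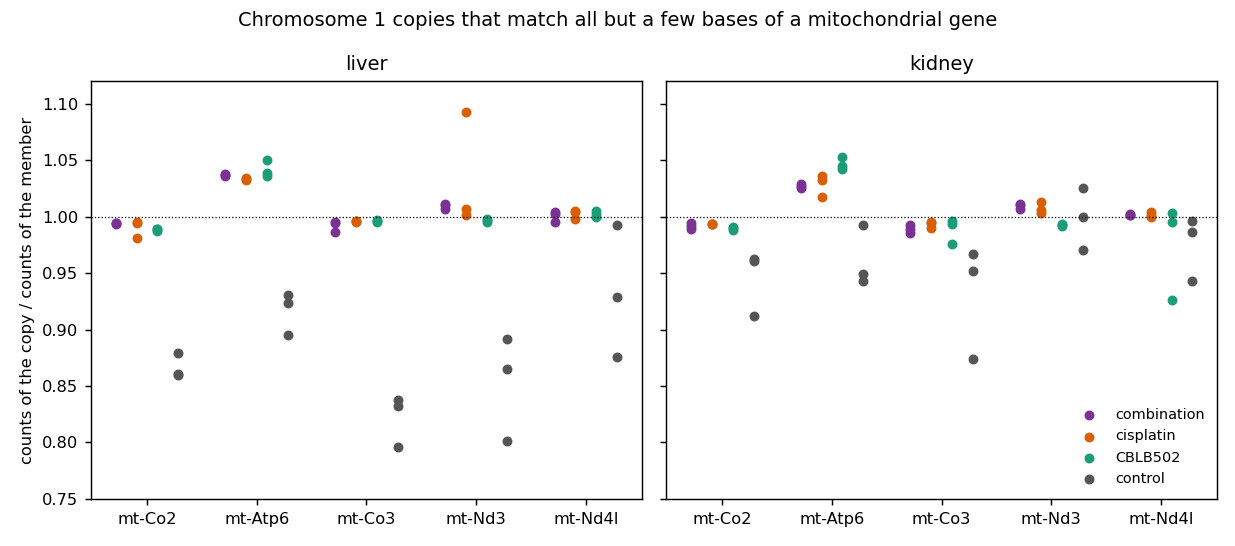
Count of each chromosome 1 copy divided by the count of the mitochondrial gene it matches, 1 point per library, by tissue and arm (vertical axis, ratio without unit). The 5 nearly full-length copies lie between 0.796 and 1.09, with most controls below 1.

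1 library stood apart before any comparison. In liver cisplatin library 3, the tRNAs mt-Th, mt-Ts2 and mt-Tl2 had 1111, 892 and 882 counts, against at most 28 counts in the other liver cisplatin libraries. Its rRNA share of mitochondrial counts was 3.15%, against 1.08% and 1.31% there. Results that rest on it are given with and without it.

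The tissue labels were checked against marker genes. All 8 hepatocyte markers were detected in every group of both tissues, so their detection does not tell the tissues apart. Their summed levels were 85660 to 132310 counts per 1000000 nuclear counts in treated livers and 44499 to 75527 in liver controls, against 578 to 2914 in kidney. The 6 proximal tubule markers summed in kidney to 17635 to 20759 after the combination, 6742 to 24726 after cisplatin, 30330 to 38883 after CBLB502 and 17210 to 30078 in controls. In liver they summed to 0.111 to 82.3. Blood and vessel markers moved with the arms too. The 5 erythroid markers summed to 18.97 to 29.6 in liver after the combination, 5.36 to 15.02 after cisplatin, 367 to 395 after CBLB502 and 392 to 2126 in controls. The 5 endothelial markers summed to 18.1 to 58.8 in kidney after the combination, 10.8 to 109 after cisplatin, 136 to 293 after CBLB502 and 377 to 638 in controls. The 7 lymphocyte markers summed in liver to 0.2829 to 0.7131 after the combination and 0.1342 to 1.614 after cisplatin. Their sums were 8.004 to 16.23 after CBLB502 and 86 to 175.6 in controls. Among them, Cd8a and Ms4a1 were at 0 in all liver combination libraries and in all liver cisplatin libraries, and Cd3d in all liver controls. Liver controls held 2818907 to 4649028 nuclear counts and treated livers 48602797 to 74501247, so counts of 0 in them are not comparable. The part of these marker genes in the results below was not tested. In these bulk samples, fewer cells of a type and less RNA per cell cannot be told apart.

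Mitochondrial genes took a far smaller share of the counts in every treated library than in every control. In liver their share was 4.87%, 4.39% and 5.25% after the combination, 2.57%, 2.94% and 5.70% after cisplatin, 6.73%, 7.07% and 7.11% after CBLB502, and 72.2%, 69.3% and 72.0% in controls. In kidney it was 7.80%, 7.49% and 7.50% after the combination, 7.73%, 6.32% and 10.3% after cisplatin, 13.3%, 14.2% and 13.4% after CBLB502, and 69.0%, 60.7% and 64.4% in controls. No treated library came near a control in either tissue, and the CBLB502 libraries lay above all other treated libraries. The 9 treated libraries differed from the 3 controls by −66.0 percentage points in liver and −54.9 in kidney (exact permutation test over libraries, two-sided p = 0.00909 in each, the smallest that 9 against 3 allows). All treated arms share the same controls in a tissue, so what sets the control libraries apart from all others and what treatment did cannot be told apart.

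The chromosome 1 copies took a further 0.871% to 4.43% of counts in treated libraries and 19.8% to 21.9% in controls. Mitochondrial genes and copies together made up 3.44% to 18.6% of treated libraries and 80.8% to 93.2% of controls. Set against nuclear genes other than these copies, the same contrast was wider. In liver there were 51.6 mitochondrial counts per 1000 nuclear counts on average after the combination, 39.6 after cisplatin and 76.6 after CBLB502, against 10569, 6353 and 9485 in the 3 controls. In kidney there were 84.6 after the combination, 91.6 after cisplatin and 166 after CBLB502, against 7535, 3164 and 4573 in the controls. Treated libraries held 44001552 to 74501247 such nuclear counts, against 2818907 to 4649028 in liver controls and 5054478 to 10137352 in kidney controls. Between treated arms, the combination and cisplatin differed by 12 per 1000 nuclear counts in liver and by −6.98 in kidney, with overlapping libraries (exact two-sided p = 0.4 and 0.8). The combination and CBLB502 differed by −25.0 in liver and −81.5 in kidney, without overlap, at the smallest p that 3 against 3 allows (exact two-sided p = 0.1 in each).

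**Figure D2:**
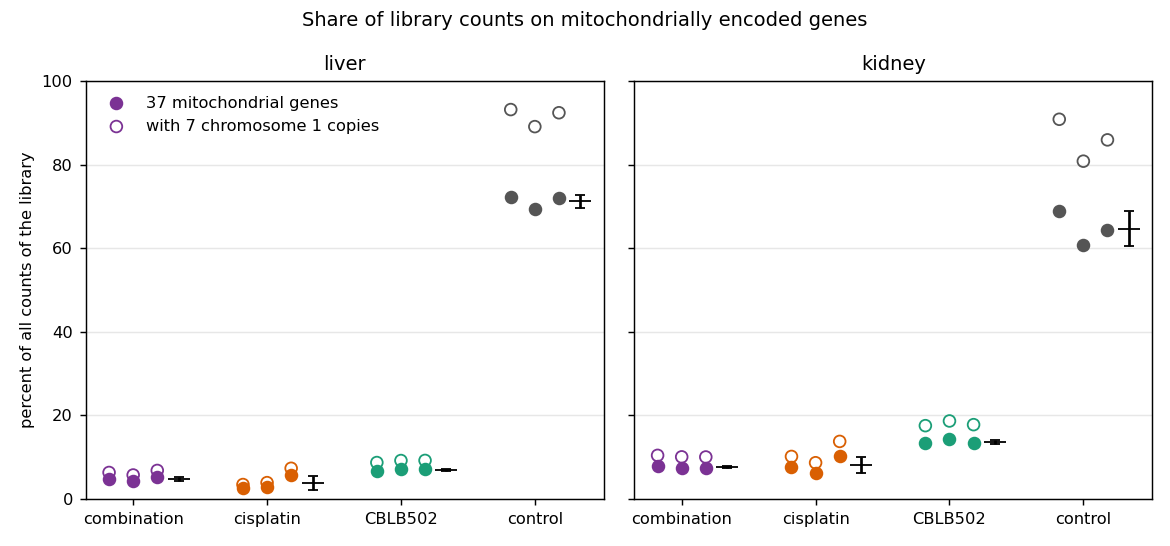
Share of each library's counts on the 37 mitochondrial genes (vertical axis, percent), 1 filled point per library, by tissue and arm, with open points for the share with the 7 chromosome 1 copies added and the cross for the mean and SD of the filled points. For the 37 genes, controls lie at 60.7% to 72.2%, and no treated library exceeds 14.2%.

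Gene by gene, on library-scaled counts, every called difference from control was a fall. By edgeR's quasi-likelihood test, with p-values adjusted over all genes by Benjamini-Hochberg and a threshold of 0.05, 37 of 37 genes were lower in liver after the combination. There 16.4% of all tested genes were called lower and 40.2% in either direction. After cisplatin 29 of 37 were lower in liver, against 17.5% of all genes (43.1% in either direction), and 37 of 37 without library 3. After CBLB502 37 of 37 were lower in liver, against 9.48% of all genes (27.8% in either direction). In kidney 32 of 37 were lower after the combination, against 15% of all genes (36.5% in either direction). After cisplatin 33 of 37 were lower in kidney, against 15.2% (39.3% in either direction), and after CBLB502 36 of 37, against 7.77% (19.2% in either direction). mt-Cytb, the cytochrome b of complex III, fell by 6.93 on the log2 scale after the combination (SE 0.39, adjusted p = 8.9e-07 by edgeR) and by 7.21 after cisplatin (SE 0.40, adjusted p = 7.0e-07) in liver. In kidney mt-Cytb fell by 6.00 after the combination (SE 0.42, adjusted p = 4.3e-06) and by 5.82 after cisplatin (SE 0.42, adjusted p = 7.0e-06). Scaling the libraries by DESeq2's median of ratios shifted all log2 changes against control by −0.25 to −0.31 in liver. In kidney the shift was −0.08 to −0.15, and both were small against these falls. The library scaling itself (edgeR's TMM) made the falls larger than on library totals alone. Its factors were 0.240 to 0.303 in liver controls and 1.53 to 1.61 in liver combination libraries. Without these factors, mt-Cytb averaged 100739 counts per kb and 1000000 library counts in liver controls. After the combination in liver it averaged 4983, still a fall.

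Between treated arms fewer genes were called on the same scale than against control. The combination and cisplatin differed in kidney in 0 of 37 genes by edgeR, with 0 of 37 at an unadjusted p under 0.05, 0 by DESeq2 and by limma-voom, and 0.00492% of all genes called. In liver that contrast had 1 of 37, mt-Tt, the threonine tRNA, at −2.16 (2.58% of all genes called lower), and the call held in 2 of 6 fits that left out a library. Without any of the 3 combination libraries no gene was called there (mt-Tt had an adjusted p of 0.17 without library 1), and without cisplatin library 3 there were 14. The combination against CBLB502 had 1 lower gene in liver, mt-Tg at −4.03 (3.86% of all genes called lower), a call that was lost in each of 6 such fits, with an adjusted p up to 0.154 without combination library 2. In kidney it had 6 higher and 6 lower (23.8% of all genes called), and 7 calls in all without combination library 6. Cisplatin against CBLB502 had 7 higher in liver (7.7% of all genes called higher), with 19 calls without cisplatin library 3, 2 without CBLB502 library 1 or 2, and 3 without CBLB502 library 3. In kidney it had 6 higher and 5 lower (28.7% of all genes called), and 7 calls in all without CBLB502 library 5.

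Since the genome as a whole fell so far, each gene was next set against the mitochondrial total of its own library. In this within-genome fit a positive log2 change means that a gene took a larger part of the mitochondrial counts than in controls. It says nothing of its absolute amount. In liver 7 of 37 genes were higher and 3 lower after the combination than in controls (39% of all genes called in that fit), 13 higher and 4 lower after cisplatin (42.5%), and 5 higher and 1 lower after CBLB502 (27%). The cisplatin counts without liver cisplatin library 3 were 15 higher and 10 lower. In kidney 21 were higher and 8 lower after the combination (36.2%), 19 higher and 8 lower after cisplatin (39.2%), and 9 higher and 1 lower after CBLB502 (19.1%). The CBLB502 counts moved with single libraries, to 3 in all without liver control library 3, and in kidney to 4 without control library 1 and 6 without control library 3 or CBLB502 library 5. Calls shared by the tissues were counted among the 37 genes only. The share over all genes was not computed, so these counts do not show that mitochondrial genes share calls more than others. Of those after cisplatin, 16 were called the same way in both tissues, 94.1% of the liver calls and 59.3% of the kidney calls. After the combination 10 were shared, 100% of the liver calls and 34.5% of the kidney calls, and after CBLB502 5 were shared, 83.3% and 50% of them. The tissues had separate libraries, but the sources do not say whether these came from the same animals.

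**Figure D3:**
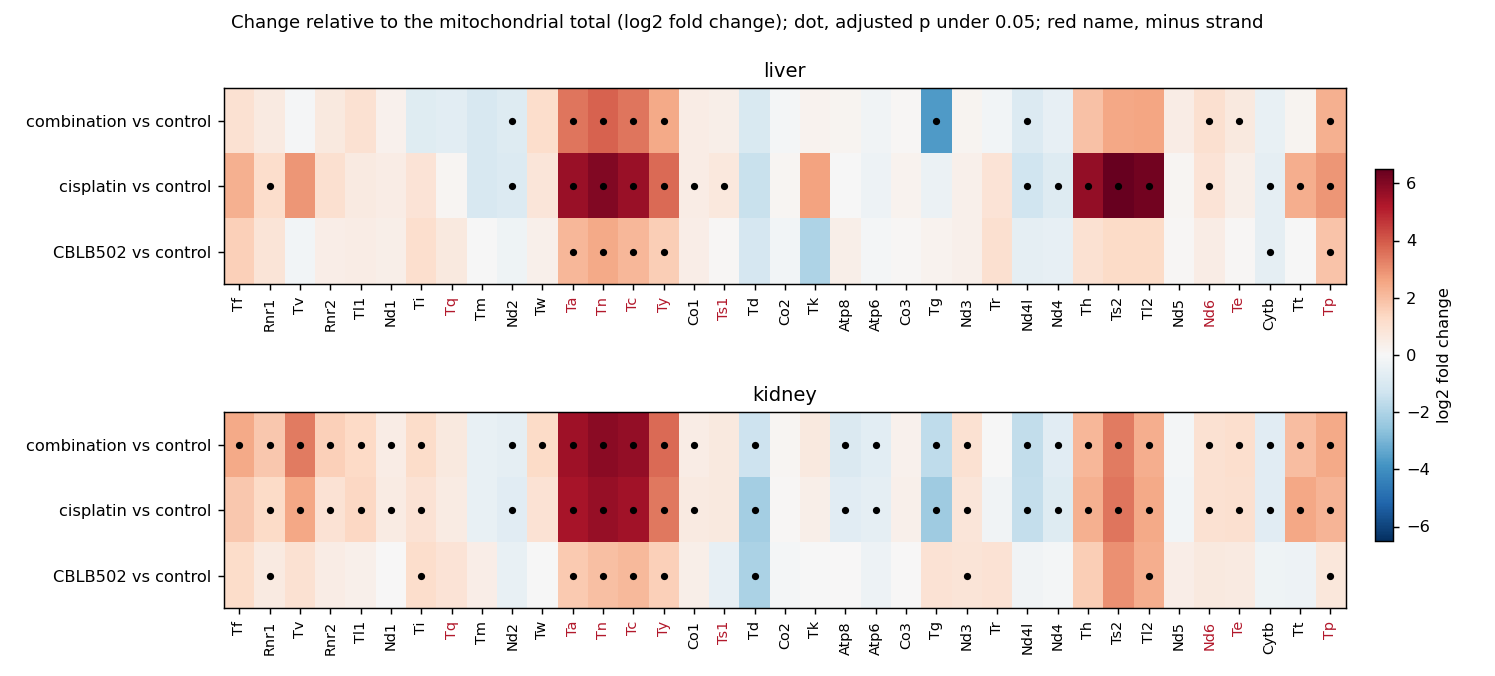
Within-genome log2 change against control for each of the 37 genes in genome order, by arm and tissue, as colour, from edgeR. A dot marks a called change and a red name a minus-strand gene. The tRNAs mt-Ta, mt-Tn, mt-Tc and mt-Ty are raised in all 3 arms of both tissues, by 1.56 to 6.03, and mt-Th, mt-Ts2 and mt-Tl2 reach 5.71 to 6.48 after cisplatin in liver.

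The block of mt-Ta, mt-Tn, mt-Tc and mt-Ty took a larger part of the mitochondrial counts than in controls in every arm of both tissues. Together these 4 tRNAs made up 0.0867%, 0.108% and 0.106% of mitochondrial counts in liver after the combination, 0.267%, 0.183% and 0.792% after cisplatin, 0.0414%, 0.0359% and 0.0464% after CBLB502, and 0.00654%, 0.0159% and 0.00633% in controls. In kidney they made up 0.162%, 0.348% and 0.271% after the combination, 0.115%, 0.412% and 0.161% after cisplatin, 0.0257%, 0.0232% and 0.0182% after CBLB502, and 0.00525%, 0.00801% and 0.00585% in controls. All treated libraries lay above all controls in both tissues. In liver the arms did not overlap, with cisplatin highest, then the combination and then CBLB502, while in kidney the cisplatin and combination libraries overlapped. The mean over the 9 treated libraries was 19.3 times that of the controls in liver and 26.8 times in kidney. Without liver cisplatin library 3 the liver difference was 0.0997 percentage points, against 0.176 with it, and the fold was 11.4. These 4 genes were put together for the size of their change in these libraries, so their sum is a description with no test.

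The rises given next are within the genome, against the mitochondrial total. mt-Tn, the asparagine tRNA, rose after the combination by 3.84 on the log2 scale in liver (SE 0.58, adjusted p = 0.000467 by edgeR) and by 5.84 in kidney (SE 0.53, adjusted p = 1.56e-05). After cisplatin it rose by 6.03 in liver (SE 0.65, adjusted p = 3.78e-05) and by 5.68 in kidney (SE 0.53, adjusted p = 2.7e-05). After CBLB502 it rose by 2.44 in liver (SE 0.55, adjusted p = 0.00715) and by 1.94 in kidney (SE 0.45, adjusted p = 0.0117), the kidney call being lost without control library 1 (adjusted p = 0.0514). mt-Ta and mt-Tc rose nearly as much, by 3.50 and 3.49 after the combination, 5.63 and 5.63 after cisplatin and 2.14 and 2.18 after CBLB502 in liver. In kidney they rose by 5.49 and 5.71 after the combination, 5.33 and 5.48 after cisplatin and 1.69 and 2.09 after CBLB502. mt-Ty rose less, by 2.48 after the combination, 3.66 after cisplatin and 1.59 after CBLB502 in liver and by 3.69, 3.45 and 1.56 in kidney. Without liver cisplatin library 3, the liver rises after cisplatin were 4.75, 5.16, 4.76 and 2.69 for mt-Ta, mt-Tn, mt-Tc and mt-Ty, all called. Several CBLB502 calls rested on single libraries. In liver that of mt-Ta was lost without control library 3 (adjusted p = 0.0595) and that of mt-Ty held in 1 of 6 fits that left out a library, with an adjusted p of 0.0964 without control library 3. In kidney that of mt-Ta held in 2 of 6, with an adjusted p of 0.086 without control library 1.

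These 4 tRNAs also rose within the tRNA class. They made up 35.1%, 27.6% and 56.9% of tRNA counts after cisplatin in liver, against 2.03% to 4.82% in controls. In kidney they made up 22.5%, 35.8% and 32.7% after the combination and 21.4%, 33.4% and 27.4% after cisplatin, against 1.59% to 2.64% in controls. In counts per 1000000 library counts (CPM), the block differed between arms. It had 126, 260 and 203 CPM in kidney after the combination and 89.0, 260 and 165 after cisplatin, 34.1, 33.0 and 24.3 after CBLB502, and 36.2, 48.6 and 37.7 in controls, so cisplatin and combination libraries were above all controls and CBLB502 libraries below them. In liver it had 42.3, 47.4 and 55.6 CPM after the combination, 68.6, 53.8 and 452 after cisplatin, 27.9, 25.4 and 33.0 after CBLB502, and 47.2, 110 and 45.6 in controls. There the combination and cisplatin libraries overlapped the controls and the CBLB502 libraries lay below them. In the library-scaled liver fit mt-Ta, mt-Tn, mt-Tc and mt-Ty were called lower after the combination (−2.86, −2.53, −2.91 and −3.94) and after CBLB502 (−3.99, −3.70, −3.99 and −4.59), and after cisplatin mt-Ty alone was (−2.66). Per 1000000 nuclear counts the block was lower on average, at 51.7 after the combination and 205 after cisplatin against 767 in liver controls. The 205 rests largely on library 3, whose block had 452 CPM against 68.6 and 53.8 in the other liver cisplatin libraries. In kidney the averages were 219 and 192 against 305 in controls, but the highest combination and cisplatin libraries lay above the lowest control. Reads from the opposite strand could add to these genes, since the strand setting of the counting is not given in the sources used here.

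**Figure D4:**
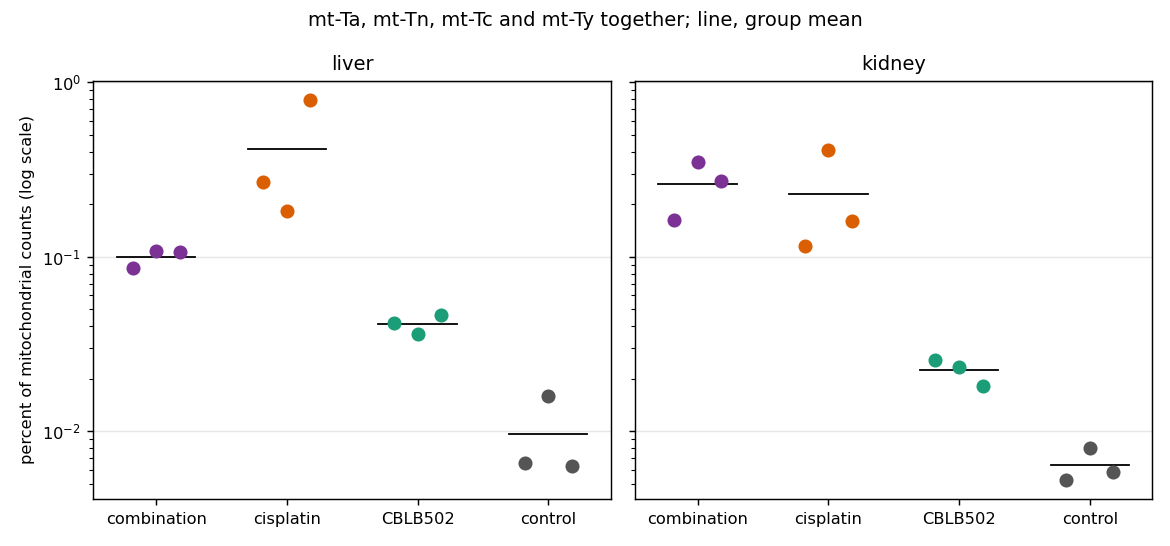
Share of mitochondrial counts on mt-Ta, mt-Tn, mt-Tc and mt-Ty together (vertical axis, percent, log scale), 1 point per library, by tissue and arm, with a line at each group mean. Controls lie at 0.00525% to 0.0159%, and treated libraries at 0.0182% to 0.792%.

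The proline tRNA mt-Tp, on the same strand beside the control region, moved the same way with little spread. In liver it made up 0.0671%, 0.0523% and 0.0496% of mitochondrial counts after the combination, 0.0949%, 0.0788% and 0.0821% after cisplatin, 0.0399%, 0.0384% and 0.0487% after CBLB502, and 0.0117%, 0.0119% and 0.0111% in controls. In kidney it made up 0.0932%, 0.0985% and 0.0843% after the combination, 0.0759%, 0.101% and 0.0586% after cisplatin, 0.0257%, 0.0304% and 0.0292% after CBLB502, and 0.0161%, 0.0164% and 0.0184% in controls. No treated library overlapped the controls. mt-Tp rose by 2.29 after the combination (SE 0.20, adjusted p = 1.81e-05 by edgeR), by 2.88 after cisplatin (SE 0.20, adjusted p = 4.56e-06) and by 1.88 after CBLB502 (SE 0.19, adjusted p = 0.00011) in liver. In kidney it rose by 2.44 after the combination (SE 0.19, adjusted p = 8.14e-06) and by 2.21 after cisplatin (SE 0.19, adjusted p = 1.85e-05). After CBLB502 in kidney it rose by 0.75 (SE 0.18, adjusted p = 0.0157), a call that was lost without CBLB502 library 5 (adjusted p = 0.065).

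Among the plus-strand tRNAs, mt-Td and mt-Tg took a smaller part of the genome in some arms, and their counts were low in many treated libraries. mt-Td had 30, 15 and 29 counts in kidney after the combination, 11, 13 and 21 after cisplatin, 21, 21 and 21 after CBLB502, and 598, 386 and 224 in controls. It fell within the genome by 1.35 after the combination (SE 0.35, adjusted p = 0.01 by edgeR), by 2.20 after cisplatin (SE 0.37, adjusted p = 0.000812) and by 2.05 after CBLB502 (SE 0.35, adjusted p = 0.00256). The combination call was lost without control library 1 (adjusted p = 0.0622). mt-Tg had 3, 1 and 2 counts in liver after the combination, 1, 4 and 57 after cisplatin, 31, 36 and 32 after CBLB502, and 193, 210 and 253 in controls. Within the genome it fell by 3.67 after the combination in liver (SE 0.86, adjusted p = 0.00616), and with 1 to 3 counts per library the size of that fall is poorly set. After cisplatin in liver its value was −0.39 (adjusted p = 0.643), and without library 3 it was −2.63 (adjusted p = 0.000545). In liver mt-Td had no call in any arm (adjusted p = 0.182, 0.0781 and 0.184 after the combination, cisplatin and CBLB502), and −2.31 after cisplatin without library 3 (adjusted p = 0.0337). After CBLB502 mt-Tg had values of 0.21 in liver and 0.92 in kidney, neither called. In kidney mt-Tg had 17, 11 and 8 counts after the combination and 2, 13 and 9 after cisplatin, against 103, 91 and 104 after CBLB502 and 441, 163 and 134 in controls. In that tissue it fell by 1.65 after the combination (SE 0.58, adjusted p = 0.0441) and by 2.29 after cisplatin (SE 0.61, adjusted p = 0.0116), and without control library 1 neither call remained (adjusted p = 0.237 and 0.0694).

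The tRNAs of the stretch before mt-Nd5, namely mt-Th for histidine, mt-Ts2 for serine and mt-Tl2 for leucine, had values among the highest in liver after cisplatin. The size of these values rests on library 3. mt-Th had 19, 21 and 1111 counts after cisplatin in liver, against 50, 46 and 56 in controls, so cisplatin libraries lay both below and far above the controls. With all libraries mt-Th, mt-Ts2 and mt-Tl2 rose within the genome by 5.71, 6.48 and 6.25 (adjusted p = 0.00261, 0.0024 and 0.00164 by edgeR). Without library 3 they rose by 2.46, 3.21 and 3.29, still called. In kidney after cisplatin they rose by 2.32, 3.47 and 2.48 (adjusted p = 0.0099, 0.0292 and 0.00786), and the call of mt-Ts2, with 0 counts in 1 control, was lost without cisplatin library 5 (adjusted p = 0.103).

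As a class, tRNAs made up 0.525% to 0.572% of mitochondrial counts after the combination in liver, 0.662% to 1.39% after cisplatin, 0.389% to 0.411% after CBLB502 and 0.289% to 0.331% in controls. The 9 treated libraries exceeded the 3 controls by 0.320 percentage points in liver (exact two-sided p = 0.00909) and by 0.345 in kidney (exact two-sided p = 0.0273), where the CBLB502 libraries overlapped the controls. Without kidney control library 2 or 3 the kidney difference no longer passed (exact two-sided p = 0.109 in each). Within the class, mt-Ts1 and mt-Te, serine and glutamate tRNAs on the minus strand, were the highest in controls per length, at 14682 ± 336 and 10575 ± 834 CPM per kb in liver (SD, n = 3). They did not share the shift of the block in size. mt-Te rose by 0.64 after the combination in liver (SE 0.20, adjusted p = 0.0229 by edgeR), which was lost without combination library 2 (adjusted p = 0.0834), and by 1.11 after the combination in kidney (SE 0.26, adjusted p = 0.00639). The remaining minus-strand tRNA, mt-Tq for glutamine, was called in no arm against control, nor were mt-Tm, mt-Tk and mt-Tr for methionine, lysine and arginine. In liver without cisplatin library 3, however, mt-Tq and mt-Tm were called lower after cisplatin, at −4.05 (adjusted p = 0.000504) against 0.15 with it, and at −3.18 (adjusted p = 5.21e-05) against −1.03 with it.

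More tRNAs were called in kidney. mt-Tl1, the other leucine tRNA, rose there by 1.30 after the combination (SE 0.23, adjusted p = 0.000997 by edgeR) and by 1.34 after cisplatin (SE 0.23, adjusted p = 0.000847), and was not called in liver. mt-Tt, for threonine, rose in kidney by 1.99 after the combination (SE 0.42, adjusted p = 0.00339) and by 2.50 after cisplatin (SE 0.43, adjusted p = 0.000919), and in liver by 2.36 after cisplatin (SE 0.45, adjusted p = 0.00153), with 0.17 after the combination there (adjusted p = 0.789). mt-Tv, for valine, rose within the genome in kidney by 3.38 after the combination (adjusted p = 0.00864 by edgeR) and by 2.49 after cisplatin (adjusted p = 0.0316). The second call was lost in 5 of 6 fits that left out a library, with an adjusted p of 0.0993 without cisplatin library 4. Its level was very low, at 1.83 to 3.08 CPM per kb after the combination, 1.13 to 1.9 after cisplatin and 0.823 to 3.22 in kidney controls. mt-Tf and mt-Tw, for phenylalanine and tryptophan, rose within the genome in kidney after the combination by 2.46 and 1.27, calls lost without combination library 4 (adjusted p = 0.0673) and without control library 3 (adjusted p = 0.0755). mt-Tf too had a low level, at 2.48 to 6.68 CPM per kb after the combination and 4.73 to 7.89 in kidney controls. mt-Ti, for isoleucine, had calls in all 3 kidney arms, at 1.20, 0.96 and 1.13 after the combination, cisplatin and CBLB502, each lost without control library 1 (adjusted p = 0.065, 0.123 and 0.126). In liver mt-Ti was not called with all libraries and was lower after cisplatin without library 3, at −1.43 (adjusted p = 0.00873).

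The rRNAs, whose mature forms make up the mitochondrial ribosome, took a larger part of the mitochondrial counts in treated libraries. Their share in kidney was 2.67%, 2.59% and 2.79% after the combination, 1.44%, 1.89% and 2.17% after cisplatin, 1.05% to 1.38% after CBLB502 and 0.799% to 0.939% in controls. The kidney arms did not overlap each other, with the combination highest and CBLB502 nearest to the controls. In liver the share was 1.28% to 1.42% after the combination, 1.31%, 1.08% and 3.15% after cisplatin, 1.30% to 1.40% after CBLB502 and 0.681% to 1.01% in controls. The 9 treated libraries exceeded the controls by 1.06 percentage points in kidney and 0.642 in liver, without overlap (exact two-sided p = 0.00909 in each). Between the kidney arms, the combination exceeded cisplatin by 0.847 points without overlap, at the smallest p that 3 against 3 allows (exact two-sided p = 0.1).

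Gene by gene, mt-Rnr1, the small-subunit rRNA, made up 1.25%, 1.18% and 1.24% of mitochondrial counts in kidney after the combination, 0.678%, 0.872% and 1.06% after cisplatin, 0.593%, 0.466% and 0.612% after CBLB502, and 0.372%, 0.386% and 0.349% in controls. It rose within the genome by 1.73 after the combination (SE 0.18, adjusted p = 3.63e-05 by edgeR) and by 1.24 after cisplatin (SE 0.18, adjusted p = 0.000334). After CBLB502 it rose by 0.59 (SE 0.17, adjusted p = 0.0346), a call that held in 1 of 6 fits that left out a library, with an adjusted p of 0.121 without CBLB502 library 4. mt-Rnr2, the large-subunit rRNA, rose by 1.54 after the combination (SE 0.18, adjusted p = 7.83e-05) and by 0.94 after cisplatin (SE 0.18, adjusted p = 0.0017) in kidney. In liver mt-Rnr1 rose after cisplatin by 1.15 (SE 0.31, adjusted p = 0.0113), or by 0.75 without library 3 (adjusted p = 0.0193), and its value after the combination was 0.56 (SE 0.31, adjusted p = 0.165). The rRNAs had low levels per length for their known abundance in cells. mt-Rnr1 had 2892 ± 935 CPM per kb in liver controls (SD, n = 3), against 48188 ± 2898 for the neighbouring protein gene mt-Nd1. Per the labels' protocols total RNA went into a standard Illumina preparation, and whether poly(A) RNA was selected is not given in the sources used here. Of 18 RNAs that lack a poly(A) tail or stay in the nucleus, 9 were in the table and 6 were tested, with 0 higher and 3 lower in kidney after the combination and after cisplatin and 0 higher and 4 lower after CBLB502. Of all tested genes there 15%, 15.2% and 7.77% were called lower after the combination, cisplatin and CBLB502. Rn7s2, an RNA of the signal recognition particle, changed in kidney by −4.38 after the combination (SE 0.86, adjusted p = 0.0022), −4.31 after cisplatin (SE 0.86, adjusted p = 0.00231) and −5.95 after CBLB502 (SE 0.93, adjusted p = 0.00141). In liver 0 were higher and 2 lower after the combination, 0 and 1 after cisplatin, and 0 and 2 after CBLB502, where 16.4%, 17.5% and 9.48% of all genes were called lower. Their part in the mitochondrial values was not tested.

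Protein genes held 95.5% to 98.3% of mitochondrial counts in treated liver and 98.7% to 99.0% in liver controls, so the makeup of the genome is chiefly that of its mRNAs. Among them the summed share of complex IV, cytochrome c oxidase, gained and that of complex III lost. The complex IV genes did not gain alike. Within the genome mt-Co1 had 0.47 in liver after the combination, beside −0.15 for mt-Co2 and 0.05 for mt-Co3, none of them called. All 3 have chromosome 1 copies and mt-Cytb has none in that cluster, and complex shares with the copies added are not given here. In liver the complex IV genes mt-Co1, mt-Co2 and mt-Co3 held 50.3%, 47.4% and 46.7% of protein-gene counts after the combination, 54.1%, 52.7% and 48.2% after cisplatin, 46.4% to 47.7% after CBLB502 and 37.8% to 39.5% in controls. In kidney they held 50.4%, 49.4% and 52.5% after the combination, 51.8%, 53.7% and 48.7% after cisplatin, 43.2% to 44.2% after CBLB502 and 37.2% to 38.8% in controls. The treated libraries lay above the controls by 10.2 percentage points on average in liver and 10.8 in kidney, without overlap (exact two-sided p = 0.00909 in each).

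Complex III, whose mitochondrial gene is mt-Cytb, held 10.8% to 12.4% of protein-gene counts in treated liver, against 16.1% to 16.7% in controls. In kidney it held 10.1% to 11.4% after the combination and cisplatin, 13.8% to 14.5% after CBLB502 and 16.8% to 17.5% in controls. The treated libraries lay 5.03 percentage points below the controls in liver and 5.48 in kidney, without overlap (exact two-sided p = 0.00909 in each). Complex I genes together lay 4.33 points below the controls in liver (p = 0.00909, exact) and 2.03 points below in kidney, where libraries overlapped (exact two-sided p = 0.0273). Complex V, of mt-Atp6 and mt-Atp8, lay 3.24 points below the controls in kidney without overlap (exact two-sided p = 0.00909), and its liver difference of −0.897 points had overlapping libraries (exact two-sided p = 0.0727).

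**Figure D5:**
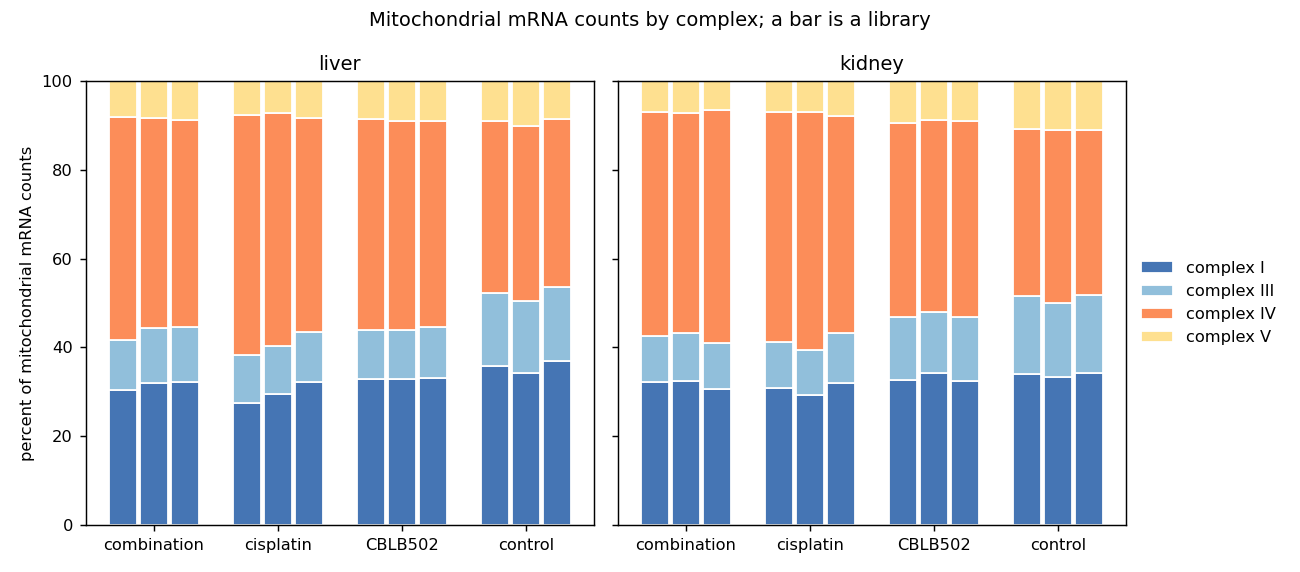
Share of protein-gene counts by oxidative phosphorylation complex (vertical axis, percent), 1 stacked bar per library, by tissue and arm. Complex IV lies at 43.2% to 54.1% in treated libraries and 37.2% to 39.5% in controls, and complex III at 10.1% to 14.5% in treated libraries and 16.1% to 17.5% in controls.

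Within complex I the genes did not move together. mt-Nd6, its only subunit encoded on the minus strand, made up 2.82%, 2.95% and 2.71% of mitochondrial counts in liver after the combination, 2.41%, 2.82% and 2.30% after cisplatin, 2.12%, 1.84% and 1.67% after CBLB502, and 1.16%, 1.64% and 1.27% in controls. It rose within the genome by 1.06 after the combination (SE 0.20, adjusted p = 0.00203 by edgeR) and by 0.89 after cisplatin (SE 0.20, adjusted p = 0.00461) in liver. In kidney it rose by 0.97 (SE 0.21, adjusted p = 0.00402) and by 0.98 (SE 0.21, adjusted p = 0.00372). After CBLB502 its values were 0.47 in liver and 0.62 in kidney, neither called (adjusted p = 0.108 and 0.0603). All minus-strand genes together made up 3.21% to 3.48% of mitochondrial counts in liver after the combination, 3.15% to 3.53% after cisplatin, 2.03% to 2.48% after CBLB502 and 1.41% to 1.93% in controls. Treated libraries exceeded controls by 1.35 percentage points in liver and 1.42 in kidney (exact two-sided p = 0.00909 in each).

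The other complex I genes fell or were not called in liver. mt-Nd4l made up 0.625%, 0.585% and 0.641% of mitochondrial counts after the combination, 0.387%, 0.360% and 0.659% after cisplatin, 0.720%, 0.689% and 0.821% after CBLB502, and 1.17%, 1.04% and 1.19% in controls, with no overlap between treated and control libraries. It fell within the genome by 0.88 after the combination (SE 0.24, adjusted p = 0.0142 by edgeR) and by 1.27 after cisplatin (SE 0.24, adjusted p = 0.00154), and the combination call was lost without combination library 2 (adjusted p = 0.0577). In kidney mt-Nd4l fell by 1.59 after the combination (SE 0.29, adjusted p = 0.00151) and by 1.56 after cisplatin (SE 0.29, adjusted p = 0.00162), and its value after CBLB502 was −0.20 (SE 0.28, adjusted p = 0.67). mt-Nd4 fell by 0.72 after the combination (SE 0.15, adjusted p = 0.0037) and by 0.83 after cisplatin (SE 0.15, adjusted p = 0.00157) in kidney, and by 0.85 after cisplatin in liver (SE 0.20, adjusted p = 0.00588). mt-Nd4l and mt-Nd4 overlap in the genome and have copies on chromosome 1.

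mt-Nd1 and mt-Nd2, neighbours on the same strand with no copy in the chromosome 1 cluster, moved apart. The count of mt-Nd2 per count of mt-Nd1 averaged 0.801 after the combination, 0.712 after cisplatin and 1.10 after CBLB502 in liver, against 1.71 in controls. In kidney it averaged 0.517 after the combination, 0.465 after cisplatin and 0.763 after CBLB502, against 1.08 in controls. No treated library reached a control in either tissue. mt-Nd2 fell within the genome by 0.82 after the combination (SE 0.20, adjusted p = 0.00811 by edgeR) and by 0.87 after cisplatin (SE 0.20, adjusted p = 0.0051) in liver. mt-Nd5 was called in no arm against control, and mt-Nd3 rose in kidney by 0.98 after the combination (SE 0.16, adjusted p = 0.000763), by 0.79 after cisplatin (SE 0.16, adjusted p = 0.00276) and by 0.86 after CBLB502 (SE 0.16, adjusted p = 0.00392).

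Among the remaining protein genes, mt-Co1 held 35.9%, 32.8% and 33.1% of mitochondrial counts in liver after the combination, 35.2%, 34.8% and 33.8% after cisplatin, 33.5%, 33.1% and 32.6% after CBLB502, and 24.1%, 26.0% and 23.3% in controls. Treated libraries did not overlap the controls, and in the fit only the liver rise after cisplatin was called, at 0.50 (SE 0.18, adjusted p = 0.0423 by edgeR). That call was lost without control library 1 (adjusted p = 0.137). In kidney mt-Co1 rose by 0.57 after cisplatin (SE 0.13, adjusted p = 0.0059) and by 0.51 after the combination (SE 0.13, adjusted p = 0.0111), the second being lost without control library 3 (adjusted p = 0.0657). Scaling by a trimmed mean over the mitochondrial genes turned the combination value of mt-Co1 in kidney to −0.06 and that of mt-Nd1 to −0.09. mt-Co2 and mt-Co3 were called in no arm against control with all libraries. Without liver cisplatin library 3, mt-Co3 at 0.35 (adjusted p = 0.0242) and mt-Nd1 at 0.59 (adjusted p = 0.00314) were called higher and mt-Atp6 at −0.35 (adjusted p = 0.0403) lower after cisplatin in liver. mt-Atp6 fell in kidney by 0.67 after the combination (SE 0.13, adjusted p = 0.00223) and by 0.59 after cisplatin (SE 0.13, adjusted p = 0.00437). mt-Atp8, which overlaps mt-Atp6, fell in kidney by 0.92 after the combination (SE 0.21, adjusted p = 0.00533).

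The order of the protein genes per length changed accordingly. In liver controls mt-Co1 came first at 112595 ± 4094 CPM per kb and mt-Cytb next at 100739 ± 3726, followed by mt-Atp6 at 81698 ± 5398, mt-Nd2 at 76321 ± 8538 and mt-Co2 at 76081 ± 6898 (SD, n = 3 each). The last 3 did not differ beyond their spread. After the combination in liver mt-Co1 stood at 10621 ± 1142 CPM per kb, above mt-Cytb at 4983 ± 531 and mt-Atp6 at 4827 ± 532, which lay within their spread of each other. In kidney mt-Co1 stood at 14955 ± 721 CPM per kb after the combination, ahead of mt-Co2 at 10492 ± 471, mt-Nd1 at 9118 ± 373 and mt-Co3 at 8847 ± 76.6, with mt-Cytb at 6755 ± 249. In kidney controls mt-Cytb came first at 96400 ± 7989 CPM per kb, with mt-Co1 at 89573 ± 3963 and mt-Atp6 at 85918 ± 5384, all within their spread. The lowest protein genes in controls were mt-Nd3 and mt-Nd5, at 13659 ± 2215 and 14025 ± 870 CPM per kb in liver and 11715 ± 1046 and 11992 ± 88.1 in kidney.

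Within the genome, few differences between the combination and cisplatin held when a library was left out. In kidney the combination and cisplatin differed in 0 of 37 genes (0.00492% of all genes called), with 3 of 37 at an unadjusted p under 0.05, among them both rRNAs at 0.49 and 0.60. Without cisplatin library 6 there were 3 calls. In liver mt-Tn, mt-Tc and mt-Tt were lower in the combination than in cisplatin libraries, by 2.19, 2.14 and 2.19 on the log2 scale (3.3% of all genes called lower). Each of these calls held in 2 of 6 fits that left out a library. Without combination library 1 mt-Tn had an adjusted p of 0.186, and without combination library 3 mt-Tc and mt-Tt had 0.162 and 0.128. Without liver cisplatin library 3, in contrast, 6 genes were higher and 6 lower, with mt-Tn at −1.32, mt-Tc at −1.27 and mt-Tt at −1.82. The combination against CBLB502 in kidney had 12 higher and 7 lower (23.6% of all genes called), and cisplatin against CBLB502 10 higher and 7 lower (28.7%). Without CBLB502 library 4 or 5 these counts were 12 and 10 in all. There mt-Ta, mt-Tn and mt-Tc were 3.64, 3.74 and 3.39 higher and mt-Nd4l was 1.36 lower after cisplatin than after CBLB502.

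The interaction asks whether the combination differs from the sum of the single agents' changes on the log2 scale. On library-scaled counts it was positive for 25 of 37 genes in liver (7.14% of all genes called positive) and 34 of 37 in kidney (2.6% called positive). mt-Cytb, which fell by 6.93 after the combination, 7.21 after cisplatin and 6.81 after CBLB502 in liver, gave an interaction of 7.08 in liver (SE 0.47, adjusted p = 8.1e-06 by edgeR) and 4.85 in kidney (SE 0.51, adjusted p = 0.0005). All treated arms are set against the same controls, so a trait of those controls alone would give a positive interaction. It cannot be told apart from an interaction of the agents. Within the genome 11 genes in liver had a negative interaction (14.7% of all genes called negative) and 0 had a positive one. That count fell to 5 or 6 without any single control, CBLB502 or combination library, and without cisplatin library 3 there were 5 positive and 9 negative. In kidney 1 gene had a positive interaction, mt-Td at 2.90 (2.25% of all genes called positive), and without cisplatin library 4, 5 or 6 there were 4, 2 and 6 calls.

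Kidney and liver were compared in a joint fit of all 24 libraries. On library-scaled counts 27 of 37 genes were lower in kidney than in liver among controls (16.7% of all genes called lower). Among treated arms the tissues differed in 2 of 37 after the combination, both higher in kidney (23.1% of all genes called higher), in 3 of 37 after cisplatin, all lower in kidney (15.4% called lower), and, by edgeR, in 0 of 37 after CBLB502 (29.9% called in either direction), where 1 of 37 had an unadjusted p under 0.05. DESeq2 and limma-voom each called 1 gene there. Fits of the compared groups alone called more genes after CBLB502 and after the combination, as given below, and lost the cisplatin calls. The counts between treated tissues thus depend on which libraries share the estimate of the spread. The 2 combination calls, mt-Tc and mt-Tt, were lost without any 1 of the liver combination libraries and without kidney combination library 5 or 6 (adjusted p up to 0.164 and 0.117). The 3 cisplatin calls are mt-Th, mt-Ts2 and mt-Tl2, and without liver cisplatin library 3 they are lost (adjusted p = 0.554, 0.682 and 0.27), while 5 other genes were called. Without liver cisplatin library 1 or 2 there were 7 and 9 calls. Within the genome the control tissues were alike in their calls, with 1 of 37 higher in kidney, mt-Tp at 0.56 (19.7% of all genes called higher), lost without kidney control library 3 (adjusted p = 0.0841). After CBLB502 mt-Tp was the 1 call, lower in kidney at −0.57 (11.3% of all genes called lower), lost without liver CBLB502 library 3 or kidney CBLB502 library 4 or 6 (adjusted p up to 0.114). After cisplatin 4 were lower in kidney (13.9% of all genes called lower), mt-Th, mt-Ts2, mt-Tl2 and mt-Tg, and without liver cisplatin library 3 these calls were lost while 4 other genes were higher. Without kidney cisplatin library 5 there were 8 calls, all lower. After the combination 10 were higher and 3 lower in kidney (40.5% of all genes called), and 4 to 8 in all without any 1 of the 6 libraries. With all 6, mt-Rnr1 at 1.10 and mt-Tn at 1.51 were among the higher genes, and mt-Nd4l at −0.81 among the lower.

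The change against control differed between the tissues for few genes within the genome. It takes in the gap between the kidney and liver controls, so a trait of the controls and a response to treatment cannot be told apart. After CBLB502 mt-Tp rose less in kidney than in liver, with a difference of −1.13 between the log2 changes (3.69% of all genes called lower), and this was called in each of the 12 fits that left out a library. After cisplatin the 1 call was mt-Tl2 at −3.78 (6.92% of all genes called lower), which without liver cisplatin library 3 was −0.81 with an adjusted p of 0.586. After the combination mt-Rnr1 at 1.17 and mt-Tc at 2.21 rose more in kidney and mt-Atp8 was lower at −1.07 (13.3% of all genes called in either direction), and these held in 1, 3 and 5 of 12 such fits (adjusted p of 0.111 without liver control library 3, 0.108 without liver control library 2 and 0.0737 without kidney combination library 6). On library-scaled counts the fall was smaller in kidney for 9 genes after CBLB502 (3.72% of all genes had a positive difference), 9 after cisplatin (7.75%) and 16 after the combination (7.79%). Among the controls, 27 of the 37 genes were already lower in kidney than in liver on that scale. The counts of smaller falls moved when a library was left out, to 3 to 13 after CBLB502, 4 to 29 after cisplatin, the highest without liver cisplatin library 3, and 8 to 18 after the combination.

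Nuclear subunits of complex I were called higher more often than lower, except after CBLB502 in kidney. Of all tested genes 23.8%, 25.6% and 18.3% were called higher in liver after the combination, cisplatin and CBLB502, and 21.5%, 24.1% and 11.4% in kidney. The 36 nuclear subunits of complex I included 28 higher and 0 lower in liver after the combination, with a median log2 change of 1.02 beside 0.14 over all tested genes, and 29 higher and 0 lower after cisplatin (median 1.42 beside 0.09). CBLB502 gave 25 higher and 1 lower in liver (median 0.81 beside 0.14). Ndufb6 and Ndufb9, accessory subunits, rose by 2.92 (SE 0.26, adjusted p = 1.5e-05 by edgeR) and 2.30 (SE 0.18, adjusted p = 9.86e-06) after the combination. In kidney the list had 30 higher and 0 lower after the combination (median 1.13 beside 0.07), 28 higher and 0 lower after cisplatin (median 0.95 beside 0.06), and 2 higher and 6 lower after CBLB502 (median −0.07 beside 0.05). The summed level of the list, which weighs abundant genes most, differed less in liver, at 2700 to 2969 counts per 1000000 nuclear counts after the combination, 2312 to 3767 after cisplatin, 2980 to 3249 after CBLB502 and 2378 to 3016 in controls, with overlap. In kidney it was 10685 to 11646 after the combination, 7899 to 10437 after cisplatin, 5837 to 6636 after CBLB502 and 7469 to 7697 in controls, without overlap with the controls.

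The nuclear subunits of the other complexes are read against the same shares of all genes. For complex IV 10 of 10 were higher in each tissue after the combination and after cisplatin, and after CBLB502 8 of 10 in liver and 3 of 10 in kidney. Cox4i1 rose by 2.45 in kidney after the combination (SE 0.21, adjusted p = 9.54e-06 by edgeR) and after cisplatin (SE 0.21, adjusted p = 1.44e-05). For complex V, ATP synthase, 14 of 15 were higher in liver after the combination, 15 after cisplatin and 14 after CBLB502, and 13, 13 and 4 in kidney, with 3 lower after CBLB502. For complex III 9 of 9 were higher in liver after the combination and after cisplatin and 8 after CBLB502, and 8, 7 and 2 in kidney, with 1 lower after cisplatin and 1 after CBLB502. For complex II, which has no mitochondrial gene, 3 of 4 were higher in liver after the combination, 4 after cisplatin and 3 after CBLB502, and 3, 2 and 1 in kidney. Of the 77 mitochondrial ribosomal protein genes 42 were higher and 3 lower in liver after the combination, and 54 higher and 0 lower in kidney. Their summed level per 1000000 nuclear counts went the other way in liver, at 2015 to 2130 after the combination and 2495 to 3213 in controls, and was 5803 to 6454 after the combination and 4882 to 5322 in controls in kidney.

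Genes that act on mitochondrial DNA and RNA were called in both directions. Of all tested genes 40.2%, 43.1% and 27.8% were called in liver after the combination, cisplatin and CBLB502, and 36.5%, 39.3% and 19.2% in kidney. Of 13 for transcription and replication, 4 were higher and 3 lower in liver after the combination, 1 and 3 after cisplatin, and 1 and 3 after CBLB502, with 5 and 0, 4 and 3, and 1 and 1 in kidney. Their summed level per 1000000 nuclear counts was lower in every treated liver library, at 232.8 to 267.5 after the combination, 157.8 to 242 after cisplatin and 266.4 to 287.9 after CBLB502, against 352.3 to 482.6 in controls. Tfam, the DNA-packaging transcription factor, rose in liver by 1.45 after the combination (SE 0.18, adjusted p = 9.92e-05 by edgeR), 1.61 after cisplatin (SE 0.18, adjusted p = 4.1e-05) and 1.43 after CBLB502 (SE 0.18, adjusted p = 0.000201). Polrmt, the mitochondrial RNA polymerase, fell in liver by 1.44 after cisplatin (SE 0.25, adjusted p = 0.000837) and by 1.06 after CBLB502 (SE 0.25, adjusted p = 0.00876). Of 25 genes for RNA processing and stability, 10 were higher and 3 lower in liver after the combination (52% called) and 4 and 1 in kidney (20% called, fewer than among all genes). Hsd17b10, a subunit of the enzyme that cuts the 5′ ends of mitochondrial tRNAs, rose in kidney by 1.70 after the combination (SE 0.16, adjusted p = 1.41e-05) and by 1.45 after cisplatin (SE 0.15, adjusted p = 5.12e-05). Of 17 mitochondrial tRNA synthetases, 5 were higher and 3 lower in liver after the combination. Lars2, the leucine enzyme, fell by 5.28 there (SE 0.44, adjusted p = 1.19e-05).

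By rank over the 12 libraries of a tissue, the nuclear genes whose CPM most resembled the mitochondrial share were themselves mostly copies of mitochondrial genes. In liver Gm13340 had a Spearman rho of 0.965, Gm13339 0.916, Gm13341 0.881, Lars2 0.797 and Gm23935 0.79. In kidney Gm13341 had 0.979, Gm13340 0.888, Gm13339 0.846, Fn1 0.825 and Myh11 0.818. These describe an order in which 3 controls stand far from 9 treated libraries, and the values of a library share its depth. Gm13340 matched mt-Co1 at 97.6% over 1545 bases, Gm13341 matched mt-Co2 at 97.6% over 672 bases, and Gm13339 matched mt-Nd2 at 96.7% over 510 bases.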

How the data were processed

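RNA was sequenced from 24 libraries, 3 in each of 8 groups. The deposited table gives whole-number counts per gene and library, per the file headers. The authors used cutadapt 1.9 and FastQC, per the submitters' processing notes; the aligner, build, strand setting and rule for reads that match several places are not given in the sources used here. A further 24 columns of normalised values were not used. The treated kidney columns carry numbers that the labels do not, so those libraries are tied to a group only and are called by the column's number.

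Counts were tested with edgeR 4.0.16 (R 4.3.3), by its quasi-likelihood test with filterByExpr, TMM scaling and Benjamini-Hochberg adjustment over all genes of a fit, with 1 fit per tissue (12 libraries) and 1 for both (24), in 21 comparisons. A second fit, called within-genome, scaled the 37 genes and the chromosome 1 copies to the mitochondrial total of each library and all other genes to their own TMM total. Both fits were tested on simulated data. Shares were compared by exact permutation over libraries with scipy 1.17.1. Alternatives were other scalings, DESeq2 1.42.0, limma-voom (limma 3.58.1), no low-count filter, fits of the compared groups alone, a replicate block and leaving out each library; 3 of the within-genome alternatives, namely the total without copied genes, the total with the copies and the within-genome block, were chosen after seeing the data. Sequences were read with Biopython 1.88. Depth ran from 40578350 to 77535597 counts per library.

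The members and lists were chosen with earlier results of these data known. All protein and rRNA genes are named, with tRNAs by the size of their within-genome change or strand. From each nuclear list at most 3 called genes per comparison with a mean of at least 5 CPM could be named. Nuclear genes of like pattern are up to 5 per tissue with a mean of at least 10 CPM. A marker gene is not reported here.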

Additional observations from a re-analysis of the deposited data

Results flagged for a closer look

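Changes against control that differed between the tissues by a test of the difference itself (edgeR, adjusted p under 0.05 over all genes) are given here, as the log2 change against control in kidney minus that in liver. A trait of the controls of either tissue cannot be told apart from a response to treatment in them. On library-scaled counts the difference was called for 9 of the 37 genes after CBLB502, 9 after cisplatin and 16 after the combination. Of all genes, 3.72%, 7.75% and 7.79% had a positive difference called there. Within the genome it was called for mt-Tp after CBLB502 at −1.13, for mt-Tl2 after cisplatin at −3.78, and after the combination for mt-Rnr1 at 1.17, mt-Tc at 2.21 and mt-Atp8 at −1.07. The mt-Tl2 value was −0.81 without liver cisplatin library 3 (adjusted p = 0.586).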

How the results depend on the processing

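Of the values for single genes under an alternative, 6201 kept their direction and side of the threshold, 794 kept their direction and lost the call, and 3 turned. The 3 are mt-Nd1 at −0.09 and mt-Co1 at −0.06 (kidney, combination against control, members scaled by TMM over the members) and mt-Tg (within the genome, kidney against liver after cisplatin), whose value ran from −2.86 to 0.23 when a library was left out and turned without liver cisplatin library 3. Library-scaled counts of genes against control stayed within 1.5 times under each alternative run, as did the within-genome counts after the combination and cisplatin.

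Fits of the compared groups alone called 0 genes for the combination against cisplatin in liver (1 in the joint fit), 18 for the combination against CBLB502 in liver (1) and 24 in kidney (12), and 3 for cisplatin against CBLB502 in liver (7). For kidney against liver they called 21 after the combination (2), 0 after cisplatin (3), 10 after CBLB502 (0) and 13 among controls (27), and for the tissue difference after cisplatin 0 (9). DESeq2 called 4 for the combination against cisplatin in liver, 7 and 1 for kidney against liver after the combination and CBLB502, and 15 for the tissue difference after cisplatin. Limma-voom called 0, 4, 1 and 15 there, and 1 for kidney against liver after cisplatin. With no low-count filter the combination against cisplatin in liver had 0 and kidney against liver after the combination 1. Scaling from nuclear genes gave 6 and 1 for kidney against liver after the combination and CBLB502. TMM over the members gave 7 within-genome calls for kidney against liver after the combination (13). The shares of all genes called under these alternatives are not given here. These counts therefore do not set the mitochondrial genes apart from others.

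Leaving out 1 library at a time, calls ranged in liver from 0 to 14 (combination against cisplatin), 0 to 0 (combination against CBLB502) and 2 to 19 (cisplatin against CBLB502), and in kidney from 7 to 11 (combination against CBLB502) and 7 to 15 (cisplatin against CBLB502). Kidney against liver had 0 to 2 after the combination and 3 to 9 after cisplatin, and the tissue difference 8 to 18 after the combination, 4 to 29 after cisplatin and 3 to 13 after CBLB502. Within the genome in liver they ranged from 3 to 6 (CBLB502 against control), 0 to 12 (combination against cisplatin), 0 to 0 (combination against CBLB502), 5 to 18 (cisplatin against CBLB502) and 5 to 14 (interaction). In kidney they ranged from 4 to 8, 0 to 3, 12 to 14, 10 to 20 and 1 to 6 in the same order. Kidney against liver within the genome had 4 to 8 after the combination, 4 to 8 after cisplatin, 0 to 1 after CBLB502 and 0 to 1 among controls, and the tissue difference 0 to 3 after the combination and 0 to 4 after cisplatin. The shares of all genes called are not given beside these ranges either, so they show only how far the counts moved. The tRNA share in kidney differed by 0.273 to 0.387 percentage points.

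Liver libraries share replicate numbers across arms, and over 18 pairs the correlations of their deviations ran from −0.17 to 0.18, with 4 over 0.1. With 3 libraries in a group and no differently numbered pairs set beside them, these values cannot settle whether the numbers pair the libraries. The replicate block called 0 for the combination against cisplatin and 4 for cisplatin against CBLB502 in liver, and within the genome 0 for the combination against cisplatin and 7 for the interaction. No block could be fitted in kidney.

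Counts of a few reads limit the rarer tRNAs, and the copies on chromosome 1 limit 7 protein genes. Each control group is shared by 3 comparisons, and a trait of its libraries cannot be told apart from treatment.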

Other observations

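Genes of the mitochondrial stress response, which act when protein folding or import in mitochondria is disturbed, were called in both directions. Of 12 genes, 6 were higher and 1 lower in liver in each treated arm (58.3% called, beside 40.2% of all genes after the combination, 43.1% after cisplatin and 27.8% after CBLB502), with a median log2 change of 1.33 after the combination (0.14 over all tested genes), 1.04 after cisplatin (0.09) and 0.32 after CBLB502 (0.14). In kidney 6 were higher and 1 lower after the combination and after cisplatin (median 0.62 and 0.58), and 3 were higher and 3 lower after CBLB502 (median 0.07), where 36.5%, 39.3% and 19.2% of all genes were called after the combination, cisplatin and CBLB502. Hspa9, the matrix chaperone mortalin, rose in liver by 2.68 after the combination (SE 0.18, adjusted p = 3.27e-06 by edgeR), by 2.53 after cisplatin (SE 0.18, adjusted p = 3.01e-06) and by 2.49 after CBLB502 (SE 0.18, adjusted p = 7.88e-06). Gdf15, a secreted stress cytokine, rose in kidney by 3.94 after the combination (SE 0.90, adjusted p = 0.00525) and by 6.41 after cisplatin (SE 1.0, adjusted p = 0.000522), and it fell in liver by 2.80 after CBLB502 (SE 0.80, adjusted p = 0.0222).

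Regulators of mitochondrial biogenesis had few calls. Of 6 genes, 2 were higher in liver after the combination and after cisplatin and 1 after CBLB502, while in kidney 1 was lower after the combination and 1 was higher after CBLB502. These shares, at most 33.3%, lay below those of all genes. Their summed level per 1000000 nuclear counts was lower in liver after treatment, at 111.7 to 116.4 after the combination, 84.5 to 102.7 after cisplatin and 102.2 to 114.6 after CBLB502, against 122 to 204.5 in controls. Ppargc1a, a coactivator of mitochondrial gene programmes, rose in liver by 2.36 after the combination (SE 0.54, adjusted p = 0.00526 by edgeR) and by 3.02 after cisplatin (SE 0.55, adjusted p = 0.00109). Gabpa, a subunit of nuclear respiratory factor 2, rose in liver by 1.54 after the combination (SE 0.23, adjusted p = 0.000413) and by 1.48 after cisplatin (SE 0.23, adjusted p = 0.000407).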
